A study of Mus musculus with 5 samples.

Results

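Merged H3K27me3 regions that lay inside protein-coding genes, away from promoters, were examined where both libraries of the knockout had a peak and WT had none in mouse dermal fibroblasts. Peaks of the 4 libraries on the 19 autosomes were joined where they overlapped by 1 bp or more, and a region was kept where it overlapped a protein-coding gene body of GENCODE M21 but no TSS ± 3 kb of a protein-coding gene. The rule found 2618 regions among 47569 merged regions of the whole series, 14145 of which lay inside gene bodies by the same definition. The regions were thus chosen by the presence of called peaks in each genotype. Because the rule used that difference, the absence of the mark from WT is a property of the choice. Values that depend on it are given as a description. Only the gene-body share of each library's peaks and covered length was tested, and that share includes the chosen regions.

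The study compared fibroblasts of Kdm6b-cKO embryos with those of WT embryos by ChIP-seq, with 2 libraries of each genotype. They are named here Kdm6b-cKO replicates 3 and 4, and, for the controls, WT replicates 7 and 9. Per the study's methods, the knockout joined a floxed Kdm6b allele with Twist2-Cre (also called Dermo1-Cre), a driver active in the dermis, on a C57BL/6 background, and cells came from skin at embryonic day 18.5. All cells were then expanded in AmnioMAX medium, so each library describes a cultured population and not the tissue itself. The labels give a sort for GFP as the mark of the conditional deletion for every library, WT included, and name neither the alleles nor the Cre status of the WT embryos. Whether a library held 1 embryo or a pool was not given in the sources used here.

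H3K27me3 is laid down by Polycomb repressive complex 2 and marks silent developmental genes. The demethylase Kdm6b, also known as Jmjd3, removes it. In most cell types the mark forms broad domains over the promoters of silent genes, often at CpG islands, and can run on into the gene and its surroundings, while the bodies of transcribed genes carry H3K36me3, which hampers the methyltransferase. The comparison therefore addressed which places inside genes carried a called H3K27me3 peak only where the demethylase gene had been deleted.

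A few stretches of these regions show how unlike each other the sequences under them were. Each is a window of 200 bases from a region, read on the forward strand of mm10 (RefSeq sequence of GRCm38.p6), in lower case with every CpG in capitals. For the first 3 regions, which were the longest of all, the window with the most CpG is given, and for Shisa6, whose region had the highest fold over background, the first such window. The stretch in Slc6a11, chr6:114142731-114142930, held 8 CpG and came from a region in an intron without a CpG island. That in Prdm16, chr4:154543972-154544171, held 17 and was intronic too. The stretch in Pax5, chr4:44558094-44558293, held 13 at a GC content of 70.5%. In Shisa6, chr11:66420943-66421142, there was a tandem repeat of 6-base units with no CpG, and all 200 bases were annotated as repeat.
Slc6a11: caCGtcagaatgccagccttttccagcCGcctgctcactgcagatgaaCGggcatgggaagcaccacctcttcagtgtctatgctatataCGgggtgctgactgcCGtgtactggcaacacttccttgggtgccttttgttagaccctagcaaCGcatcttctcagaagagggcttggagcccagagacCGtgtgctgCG
Prdm16: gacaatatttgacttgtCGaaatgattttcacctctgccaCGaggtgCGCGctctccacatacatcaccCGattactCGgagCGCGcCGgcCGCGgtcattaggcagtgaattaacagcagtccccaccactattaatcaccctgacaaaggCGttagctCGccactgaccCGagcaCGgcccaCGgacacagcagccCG
Pax5: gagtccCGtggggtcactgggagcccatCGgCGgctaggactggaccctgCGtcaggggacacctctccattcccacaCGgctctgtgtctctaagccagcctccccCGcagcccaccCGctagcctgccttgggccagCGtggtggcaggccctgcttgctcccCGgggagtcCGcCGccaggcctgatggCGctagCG
Shisa6: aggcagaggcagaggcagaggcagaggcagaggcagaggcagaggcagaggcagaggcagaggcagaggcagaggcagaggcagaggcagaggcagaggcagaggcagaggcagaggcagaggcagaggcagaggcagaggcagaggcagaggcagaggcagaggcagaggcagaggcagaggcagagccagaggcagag

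Kdm6b-cKO-only regions were frequent inside gene bodies and regions of the opposite kind were rare. Of all merged regions, 15.4% were Kdm6b-cKO-only. Inside gene bodies the share was 18.5%, against 14.5% between genes and 12.8% at promoters. Regions inside gene bodies made up 35.6% of the 7346 Kdm6b-cKO-only regions and 29.7% of all merged regions. They were 21.5% of the 9810 regions called in all 4 libraries, which lay at promoters in 36.2% of cases. A region that touched a TSS ± 3 kb at any base counted as promoter, which longer regions do more easily. The mirrored WT-only class held 43 regions inside gene bodies, or 0.304% of the gene-body regions, in 40 genes (0.192% of protein-coding genes). These counts moved with how much each list called. The Kdm6b-cKO lists covered 133 and 115 Mb of the autosomes and the WT lists 81.8 and 55.3 Mb. With the strongest peaks of each list kept up to an equal covered length of 55.3 Mb, 23 regions were Kdm6b-cKO-only and 445 WT-only inside gene bodies. With an equal number of 19210 strongest peaks per list, the counts were 794 and 165. The mirrored count was 927 without WT replicate 9 and 292 without WT replicate 7, where a single WT peak was enough.

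The share of peaks inside gene bodies was compared between libraries. All peaks of a list count in it, those of the chosen regions included. These regions held 2784 and 2802 peaks of Kdm6b-cKO replicates 3 and 4, which had 11383 and 11075 peaks inside gene bodies. By the rule they held no WT peak, so the comparison is not independent of the choice. The share was 29.6% and 30.2% for the Kdm6b-cKO replicates 3 and 4. Each of WT replicates 7 and 9 had 27.9%. The Kdm6b-cKO libraries lay above both WT libraries, and the means differed by 1.96 percentage points (two-sided exact permutation test, p = 0.333, which is the smallest p that 2 against 2 libraries can give). Measured by covered length, the gene-body share was 24.2% and 25.6% against 21.7% and 21.8%, a difference of 3.12 points with the same exact permutation p = 0.333. The groups did not overlap in either measure. Both differences turned to the opposite sign with equal covered length, to -5.44 and -2.91 points (exact permutation p = 0.333 and 0.667). For covered length the groups were then no longer fully separated. The equal length was that of the whole list of WT replicate 9, so only the other lists lost their weaker peaks.

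**Figure D1:**
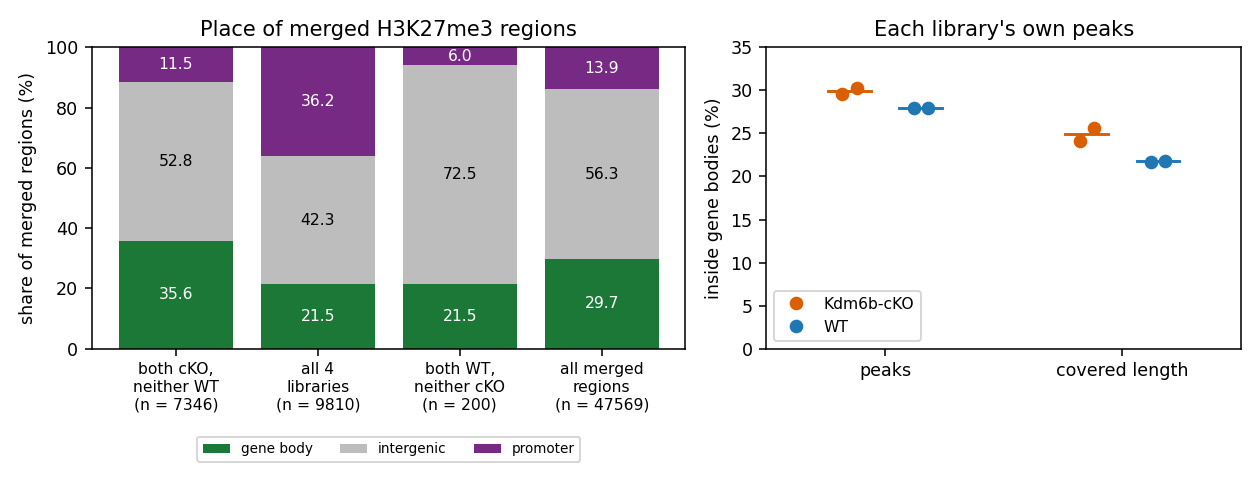
Left, share of merged autosomal regions (%, stacked to 100%) inside gene bodies, between genes and at promoters for Kdm6b-cKO-only regions, regions of all 4 libraries, WT-only regions and all merged regions. Right, share of each library's own peaks and covered length inside gene bodies (%), with points for libraries and lines for the mean of 2, where the Kdm6b-cKO points at 29.6% and 30.2% of peaks sit above the WT points at 27.9%.

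The Kdm6b-cKO-only regions inside gene bodies were shorter and had lower folds than the gene-body regions of all 4 libraries. Their length ran from 290 to 18374 bp with a median of 2024.5 bp, and together they spanned 6.58 Mb. Of the 2618 regions, 378 were under 1 kb, 228 over 5 kb and 17 over 10 kb. The regions of all 4 libraries inside gene bodies had a median length of 6875 bp. With −log10 q of at least 4 the rule found 443 regions of median length 6684 bp, which overlapped only 59 of the 2618. Without Kdm6b-cKO replicate 3 or 4 the median length was 857 or 868 bp. The median of the highest fold over background per region, as the peak caller gave it, was 2.80 in Kdm6b-cKO replicate 3 and 2.81 in replicate 4, against 3.18 and 3.11 in the same libraries for the gene-body regions of all 4 libraries. Ranked by −log10 q within its own list, the median region stood at the 43.1 percentile in replicate 3 and the 44.0 in replicate 4. The shared gene-body regions stood at the 80.7 and 77.2 percentiles, so the Kdm6b-cKO-only regions ranked lower within each list. These differences in length, fold and rank follow in part from the choice. Shared regions join peaks of all 4 lists and had to be called in each of them.

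The 2 Kdm6b-cKO libraries placed peaks in the same regions by the rule, but with uneven extent. The median length covered was 1430.5 bp in replicate 3 and 1313.5 bp in replicate 4. Replicate 3 covered more in 1359 regions, replicate 4 in 1256, and 3 were equal, so neither library was systematically the longer. Covered lengths lay within 1.5-fold of each other in 1137 regions (43.4%) and differed by more than 3-fold in 454. Across the 2618 regions the Spearman correlation between the libraries was 0.51 for covered length and 0.28 for fold. These points are regions of the same 2 libraries, not replicates. At the median region, 41.6% of the merged span was covered in both libraries.

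**Figure D2:**
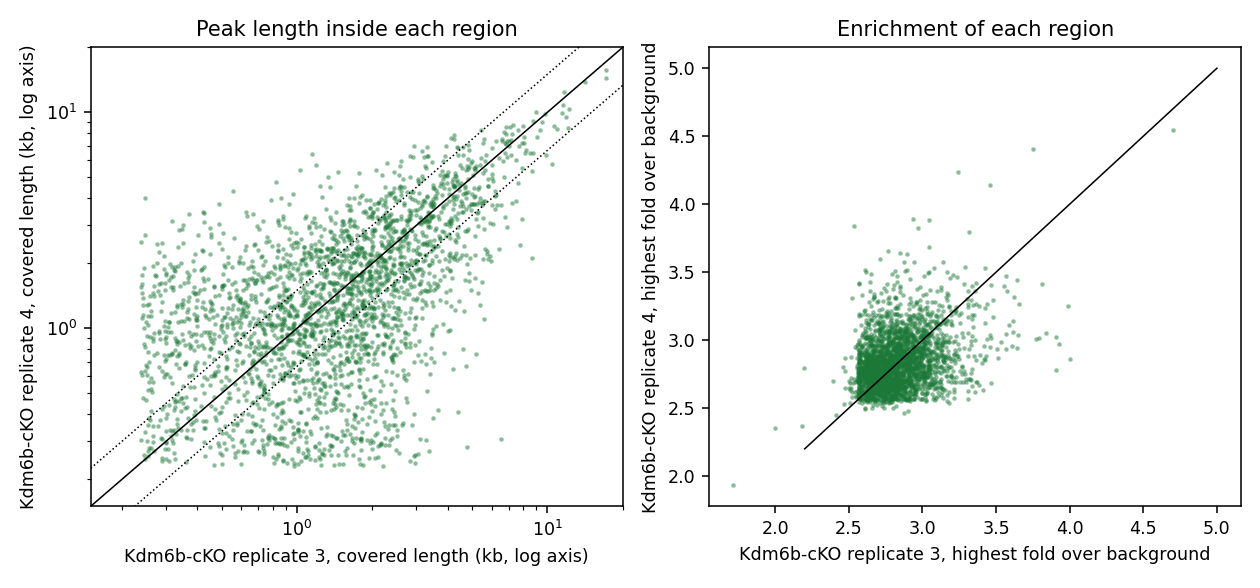
Each point is 1 of the 2618 regions. Left, length covered by peaks (kb, log axes) in Kdm6b-cKO replicate 3 against replicate 4, with the line of equality and dotted lines at 1.5-fold, within which 1137 regions lie. Right, the highest fold over background in the same libraries, with the line of equality, where most regions lie between 2.5 and 3.5 and the Spearman correlation was 0.28.

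Most of the covered sequence was intronic and lay far from the start of the gene. Introns took 89.3% of the regions' bases and exons 8.92%, and 1.82% lay outside a gene body. Exons make up 6.26% of all gene-body sequence away from promoters. No exon was touched by 1541 regions, and 2529 regions lay wholly inside gene bodies. Of the 1942 regions for which a first intron was defined, 456 (23.5%) had their centre in it, close to the 23.3% of shared gene-body regions. The median distance to the host gene's TSS was 42.6 kb. The rule used a single TSS per gene, and 118 regions (4.51%) overlapped the TSS of another transcript of a protein-coding gene, against 13.3% of the shared ones. Within 3 kb of such a TSS lay 269 regions (10.3%), against 18.4% of the shared ones. The shared regions were longer and so reach a TSS more easily. Along the host gene, 13.4% of centres fell in the first 20% of the gene, from which the rule removes the promoter, and between 20.7% and 23.0% in each later 20%. The shared gene-body regions were spread alike, with 13.8% in the first 20% and 20.5% to 23.1% in the later ones.

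At the 3 kb limit of the rule, regions on either side were covered over overlapping ranges of length. The Kdm6b-cKO-only region just inside the limit, in Camk2n1, lay 3007 bp from the nearest TSS and was covered over 2423 and 4288 bp in replicates 3 and 4. In Fcer2a the distance was 3017 bp with 3076 and 1880 bp covered, and in Edn2 3030 bp with 1917 and 1324 bp. Just outside were regions in Lzts3 at 2983 bp (2956 and 3292 bp covered), in Pabpc4 at 2937 bp (758 and 1680 bp) and in Ppfia4 at 2904 bp (1053 and 1094 bp).

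**Figure D3:**
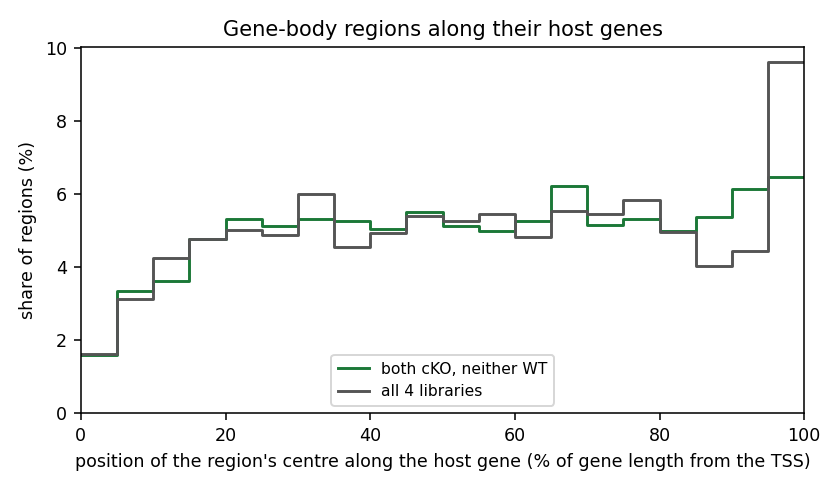
Share of gene-body regions (%) by the position of their centre along the host gene, from the TSS at 0% to the end of the gene at 100%, in 20 bins, for Kdm6b-cKO-only regions and for regions of all 4 libraries. Both are sparse near the TSS, where the rule removes promoters, and centres beyond the gene end are counted in the last bin, which holds more of the shared regions.

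Many of these regions lay near H3K27me3 that WT cells carried too. The same distance was not measured for other gene-body sequence, so it is not shown to be particular to them. The nearest WT peak was a median of 9.47 kb away, within 1 kb for 195 regions and within 10 kb for 1358 (51.9%). A region of all 4 libraries lay within 10 kb of 908 (34.7%) and over 100 kb from 393. That distance was taken to the merged edge, which a peak of any library can set. The 3 regions closest to a WT peak were in Nfasc, at 0 bp (the peak abutted without a shared base), and in Gm973 and Ankrd36, each at 3 bp. The region in Nfasc, a cell adhesion gene of axons, was covered over 3458 and 3778 bp in replicates 3 and 4, and that in Ankrd36 was repeat over 92.5% of its length. No WT peak lay within 10 kb of the other 1260 regions.

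The host genes numbered 1386, or 6.66% of the 20807 autosomal protein-coding genes. A single region was found in 853 of them, 2 in 282, 3 or 4 in 164 and 5 or more in 87. Those 87 genes held 740 regions, and 22 genes had 10 or more. Hosts were long genes, the median being 63.9 kb where all genes had 17.6 kb. The share of genes hosting a region rose from 0.741% under 10 kb to 5.00%, 10.6%, 18.7% and 28.7% in the classes of 10 to 30, 30 to 100, 100 to 300 and over 300 kb. Per Mb of gene length the density was highest in the middle classes, at 3.21, 3.16 and 2.67 regions, and lower in genes over 300 kb (1.80) and under 10 kb (1.49). Across chromosomes the density ran from 1.27 regions per Mb of gene-body sequence on chromosome 13 to 4.53 on chromosome 11.

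The promoter of the host gene was often already marked in WT. A promoter was counted as marked where peaks covered at least 500 bp of its TSS ± 3 kb. Among hosts, 574 (41.4%) had a promoter marked in all 4 libraries, compared with 15.1% of all protein-coding genes. In 154 hosts (11.1%) the promoter was marked by the knockout libraries alone, and in 435 (31.4%) in no library, a state that 72.1% of all genes had. Seen from the genes, 18.3% of those marked in all 4 libraries hosted a region, 17.9% of those marked by the knockout libraries alone and 2.90% of those marked in none. A gene-body region of all 4 libraries was present in 531 hosts (38.3%). In contrast, 318 hosts had neither a marked promoter nor such a shared region.

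The genes with the most Kdm6b-cKO-only regions were long, and several of them act in neurons. Rbfox3, the neuronal splicing factor NeuN, had 26 regions of 0.763 to 11.9 kb, with folds (the lower of both libraries) of 2.57 to 2.99. Its 422 kb were covered over 237 and 253 kb for Kdm6b-cKO replicates 3 and 4. The WT replicates 7 and 9 covered 47.8 and 29.95 kb, while its promoter was covered by 94.1% or more in every library. The Kdm6b-cKO libraries were high and the WT libraries low, and the 26 regions made up 29.5% and 30.7% of the covered length in the Kdm6b-cKO libraries. The rest lay in regions that a WT peak also touched or that 1 Kdm6b-cKO library alone had. Coverage of a host gene includes the chosen regions. That a host is covered more in Kdm6b-cKO than in WT thus follows in part from the choice, here and for the genes below. The Kdm6b-cKO lists also covered more of the autosomes as a whole, at 133 and 115 Mb against 81.8 and 55.3 Mb for WT.

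Dscaml1, a cell adhesion molecule of the nervous system, had 20 regions. They made up 46.3% and 51.6% of the covered length of the gene, which was 120 and 118 kb without Kdm6b against 10.6 and 11.3 kb for WT. Atp2b2, a plasma membrane calcium pump of neurons and hair cells, had 19 regions and was covered over 156 and 176 kb without Kdm6b against 37.3 and 30.2 kb for WT. In both genes the lowest Kdm6b-cKO library covered more than 4 times the length of the highest WT library.

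Camta1, a transcription activator of brain and heart, held 22 regions although its promoter was not covered in any library. Its coverage was 277 and 246 kb without Kdm6b and 69.1 and 50.1 kb for WT. Kcnma1, the calcium-activated BK potassium channel, had 17 regions over 209 and 144 kb of Kdm6b-cKO coverage and 101 and 63.9 kb of WT coverage. Here the lower Kdm6b-cKO library was nearer to WT replicate 7 than to the other Kdm6b-cKO library.

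Prdm16, a transcriptional regulator of brown and beige adipocyte fate, had 19 regions in 321 kb. Its coverage was 192 and 185 kb for Kdm6b-cKO replicates 3 and 4. The WT replicates 7 and 9 had 41.4 and 29.5 kb, with the promoter covered whole in all 4. The longest region of the gene, 17112 bp in an intron 78.7 kb from the TSS, was covered whole in replicate 3 and over 15785 bp in replicate 4. It lay 0.143 kb from the merged edge of a region of all 4 libraries, but 9.16 kb from the nearest WT peak. It holds the CpG-rich stretch printed above.

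**Figure D4:**
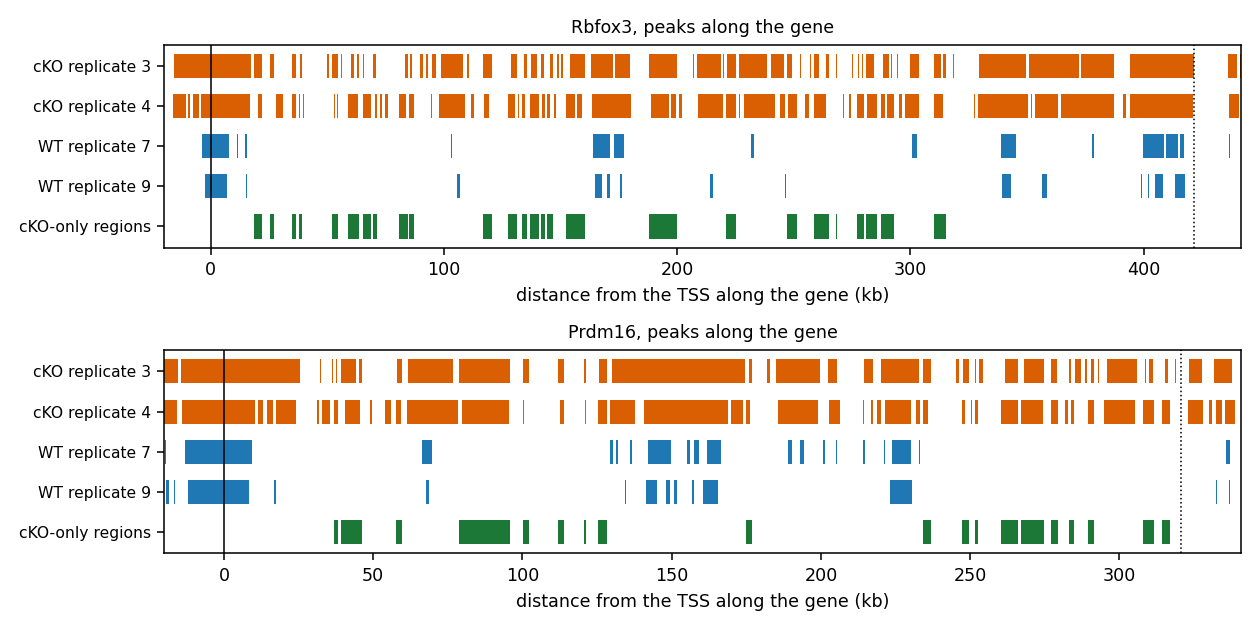
Peaks of the 4 libraries along Rbfox3 and Prdm16, by distance from the TSS (kb; solid line TSS, dotted line gene end), with the Kdm6b-cKO-only regions in the bottom row of each map. In both genes WT peaks gather at the TSS and in a few inner blocks, and the Kdm6b-cKO-only regions, 26 in Rbfox3 and 19 in Prdm16, fill spaces between them.

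A pair of gene models ranked high through their size. Gm20388 spans 4435 kb and overlaps many other genes, and 27 of its 34 regions lay in no other protein-coding gene. The model of Fgfr2, a fibroblast growth factor receptor, spans 2961 kb, and 13 of its 18 regions lay in no other gene. Neither count can be read as a property of those genes. Leaving out the 6 gene models over 2 Mb kept 2576 of the 2618 regions.

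The 12 longest single regions lay in genes of unlike functions. The longest of all, 18374 bp in an intron of the GABA transporter gene Slc6a11, was covered over 17204 and 14452 bp in Kdm6b-cKO replicates 3 and 4 and by no WT peak. Slc6a11 had 7 regions in 119 kb and was covered over 61.7 and 64.1 kb without Kdm6b against 2.78 and 3.22 kb for WT. The region of 15001 bp in Pax5, a regulator of B cell and midbrain development, was covered over 14176 and 13759 bp and lay 48.1 kb from the nearest WT peak. In Kcnq1, a potassium channel gene of heart and inner ear, 12902 bp were spanned, of which 11523 and 10814 bp were covered. In each of these 3 regions the covered lengths of the libraries lay within 1.5-fold of each other.

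Among the 12 longest, Abcc6 (a transporter), Camta1, Rnft2, Padi1, Otog, Ccdc88c and Rbfox3 had regions of 11858 to 12388 bp. Padi1 encodes a peptidylarginine deiminase of the epidermis, and its region took 12158 of 32796 bp of the gene. It was covered over 12158 and 10318 bp, and no part of Padi1 was covered in either WT library. Otog, which encodes the inner ear protein otogelin, had 5 regions and was covered over 34.0 and 33.2 kb without Kdm6b against 0.477 and 0 kb for WT. All 12 longest regions had a GC content between 47.9% and 54.9%.

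The highest folds came from unlike places. Shisa6, an auxiliary subunit of AMPA receptors, had the region with the highest value, 4.70 and 4.55 in replicates 3 and 4. It was 305 bp long and repeat over its whole length, the repeat printed above. A630010A05Rik also ranked among the 8, with a region of 724 bp that was 91.7% repeat. Gm3002 (3.75 and 4.403) and Gm3005 (3.46 and 4.14) belong to a family of near-identical copies on chromosome 14, so the place of reads there is uncertain. The remaining 4 were in Rbfox1, Sun5, Dlgap3 and Zfr2, with folds between 3.41 and 3.81 in the 2 libraries. In Rbfox1, a splicing factor of neurons and muscle, the region of 4925 bp lay 393 kb from any WT peak and held a CpG island. Over all 2618 regions, 115 (4.39%) were more than 50% repeat and 34 more than 90%.

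The sequence under the regions was rich in GC. Their median GC content was 50% (quartiles 47.3% and 52.6%), against 46.5% for gene-body regions of all 4 libraries and a mean of 42.8% over all gene-body sequence away from promoters. Kdm6b-cKO-only regions elsewhere were similar, at 50.6% at promoters and 48.1% between genes. The 43 mirrored WT-only gene-body regions were at 40.8%. Gene-body regions called in a single library showed the same order, with medians of 47.4% and 50.3% for Kdm6b-cKO replicates 3 and 4. The medians of WT replicates 7 and 9 were 42.9% and 42.5%. By contrast, gene-body peaks within any region of all 4 libraries, promoter regions included, had a median GC of 46.9%, 47.4%, 47.3% and 47.1% in the 4 libraries. GC content thus moved with the library in the places that were not shared, and its part in the calling was not tested.

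**Figure D5:**
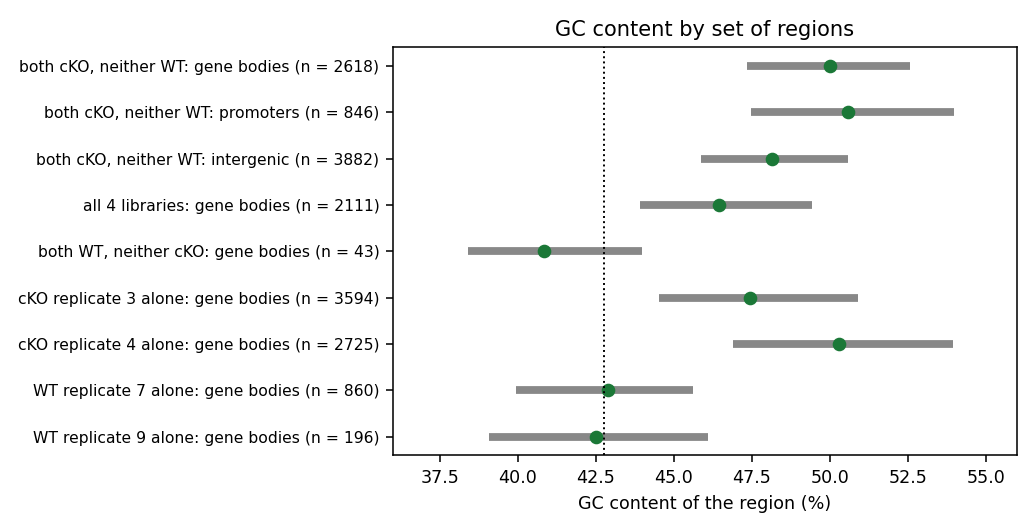
GC content (%) of regions by set, with points for medians, bars for quartiles and the number of regions in brackets. The dotted line is the mean of 42.8% over gene-body sequence away from promoters, and sets called only in Kdm6b-cKO libraries lie to its right while sets called only in WT libraries lie near or left of it.

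CpG islands lay in a minority of the 2618 regions. A stretch of 200 bp with a GC content of at least 50% and an observed over expected CpG ratio of at least 0.6 was found in 761 regions (29.1%) and in 55.5% of the shared gene-body regions, which were longer. In windows of 2 kb on the centre of each region the shares were 26.2% and 24.0%, against 13.3% of 454307 adjoining windows of gene-body sequence. The island share moved with the peaks and libraries used. It was 72.0% of the 443 regions that the rule found with −log10 q of at least 4, which overlapped only 59 of the 2618. Of the 23 regions found with equal covered length, which overlapped 17 of the 2618, it was 73.9%. Without Kdm6b-cKO replicate 3 or 4 it was 15.9% or 13.7%. The density was 12.1 CpG per kb at the median region and 9.15 on average over gene-body sequence. Regions with an island were longer (median 2876 bp) than the 1857 without (1800 bp), and the median fold in the weaker library was 2.78 and 2.70. Annotated repeats took 14.6% of the median region and 27.5% of gene-body sequence on average.

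Motif rates differed between the sets. The core of the site of EBF factors, CCCNNGGG, was searched as those letters, which read the same on both strands, and occurred 47.0 times per 100 kb of the regions. The rate was 36.2 in shared gene-body regions and 20.5 in all gene-body sequence. Kdm6b-cKO-only regions had 47.4 at promoters and 35.8 between genes. Gene-body regions of Kdm6b-cKO replicates 3 and 4 alone had 32.1 and 47.6, so the rate was not particular to the 2618 regions. In windows of 2 kb the motif was present in 50.9% of the regions, 42.5% of shared gene-body regions and 28.9% of adjoining gene-body windows. For Kdm6b-cKO-only regions elsewhere it was present in 53.8% at promoters and 42.1% between genes. The site of TCF and LEF factors, ATCAAAG on either strand, was rarer, at 13.8 per 100 kb. Shared gene-body regions had 16.6 and all gene-body sequence 19.6. It was present in 25.9% of the regions' windows, 30.5% of the shared ones and 31.98% of the adjoining ones. The first motif consists mostly of C and G and the second mostly of A and T, and neither match says that a factor bound there.

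Gene lists differed in how many of their genes hosted a region. The lists were chosen with results of these data known, and each count is read beside the 6.66% of all genes that were hosts and the 2.82 regions per Mb of gene-body sequence. Both ion channel lists lay above these values, and their genes were long, with medians of 130 and 195 kb, a length class of which 18.7% hosted a region. Among 31 calcium and sodium channel genes 16 were hosts (51.6%), and among 30 potassium channel genes 13 (43.3%), at 5.73 and 6.37 regions per Mb. Cacng2, which encodes a calcium channel subunit and AMPA receptor regulator, was covered over 35.9 and 39.9 kb without Kdm6b against 0 and 0.294 kb for WT. Scn10a, a sodium channel of sensory neurons, had 9.29 and 7.47 kb against 0 in both. Cacna1h, a T-type calcium channel, had 28.3 and 32.9 kb against 8.42 and 5.68 kb. Kcnn3, a small-conductance potassium channel, had 91.8 and 79.9 kb against 35.3 and 13.7 kb, and Cacnb4 48.9 and 29.8 kb against 21.4 and 10.7 kb.

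Of 40 glutamate and GABA receptor and transporter genes 9 were hosts (22.5%), with 53 regions, and their median length of 197 kb falls in the class of 100 to 300 kb, of which 18.7% hosted a region. Gabbr2, a subunit of the GABA-B receptor, alone had 15 and was covered over 159 and 151 kb against 17.8 and 14.7 kb. The kainate receptor genes Grik4 and Grik3 had 12 and 8 regions. Axon guidance and synaptic adhesion genes were long, with a median of 319 kb, in a class of which 28.7% hosted a region. Of these 42 genes 6 were hosts (14.3%), and their density of 0.703 regions per Mb was the lowest of the lists with a region. Slit1, Ephb1, Plxna4 and Cntnap2 had 2 or 3 regions each.

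All 35 neuronal transcription factor genes had a promoter marked in every library, and 4 were hosts, Pax5, Rfx4, Pax7 and Pax8 (11.4%). The median length of the 35 genes, 7.51 kb, falls in a class of which 0.741% hosted a region. With 10 of the list's 16 regions in Pax5, the density of 14.96 per Mb rested on that gene. Pax5 was covered over 93.3 and 107 kb without Kdm6b and 32.2 and 31.0 kb for WT. The difference was small in Pax8, at 17.6 and 15.1 kb against 14.7 and 13.3 kb.

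Matrix genes, with a median length of 108 kb in the same class of 100 to 300 kb, were hosts in 14 of 42 cases (33.3%). Col26a1 had 8 regions (32.2 and 35.9 kb covered against 10.8 and 3.34 kb), and Col13a1, a transmembrane collagen, 3 (60.5 and 63.5 kb against 22.1 and 12.3 kb). Acan, the cartilage proteoglycan aggrecan, had 3 (40.8 and 40.9 kb against 14.5 and 10.7 kb). Lama5, a laminin chain of basement membranes, had 2 (13.1 and 17.1 kb against 3.92 and 3.503 kb). Among 35 metalloproteinase genes 6 were hosts (17.1%) with 1 or 2 regions each, the longest total being 5.59 kb in Adamts17. The median length of the 35 genes, 45.7 kb, falls in a class of which 10.6% hosted a region. Adamtsl3, Mmp28 and Adamts16 had 1 region each, and Adamtsl3 was covered over 177 and 152 kb against 156 and 129 kb.

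The pathway lists of skin development lay nearer the share of all genes, and their genes were shorter than those of the channel lists. Median lengths of the Wnt, TGF-beta and BMP, and Fgf and hedgehog lists (31.2, 30.3 and 36.1 kb) fall in a class of which 10.6% hosted a region. The Notch list (10.5 kb) falls in a class with 5.00%. In the Wnt list 5 of 46 genes were hosts (10.9%). Rspo4, an R-spondin of nail development, had a region of 7.93 kb and was covered over 20.96 and 21.2 kb against 3.91 and 2.08 kb. Tcf7, a transcription factor of the pathway, had 2 regions, and Lgr6 and Wif1 had 1 each. Lgr6 was covered over 83.6 and 73.2 kb against 71.9 and 51.7 kb. The list of TGF-beta and BMP genes had 2 hosts of 36 (5.56%), Bmp7 with 3 regions and Bmp8a with 1, which is below the share of all genes. The Notch list had 3 of 26 (11.5%), namely Maml3, Notch4 and Heyl. The Fgf and hedgehog list had 4 of 30 (13.3%), namely Fgfr2, Fgf12, Fgf18 and Gli1. Of its 21 regions 18 lay in the long model of Fgfr2, whose count cannot be read as a property of the gene. Notch4, a receptor of endothelial cells, was covered over 16.9 and 15.9 kb against 3.22 and 1.51 kb. Fgf18 had 1.75 and 3.403 kb against 0 in both WT libraries, while Fgf12 had 16.7 and 13.1 kb against 12.2 and 11.8 kb.

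Adipocyte lineage genes were hosts in 3 of 34 cases (8.82%), and 19 of their 23 regions lay in Prdm16. Their median length of 17.5 kb falls in a class of which 5.00% hosted a region. Ebf3, which is related to the adipocyte regulators of the EBF family, had 3 regions in a gene covered over 61.6 and 64.8 kb against 46.8 and 30.3 kb. Plin1, the lipid droplet protein perilipin, had 1 region of 1.08 kb, and its gene was covered over 2.68 and 2.96 kb without Kdm6b and by no WT peak. Among 30 dermal papilla genes, with a median length of 55.6 kb, 5 were hosts (16.7%), in a length class of which 10.6% hosted a region. Alpl, the alkaline phosphatase of the dermal papilla, had 2 regions and 27.9 and 25.9 kb against 7.89 and 4.10 kb. Runx1 had 1 region, with 3.62 and 1.53 kb against 0 in both, at an unmarked promoter. Prom1, which encodes CD133, and Runx3 and Wif1 had 1 region each. Runx3 was covered over 39.3 and 36.9 kb against 29.9 and 15.5 kb.

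Markers of other cell types were hosts at shares of 11.8% to 23.8%, beside 6.66% of all genes. The fibroblast core list held no host, but it has only 18 genes. Median lengths of the fibroblast core, endothelial and immune lists (37.45, 43.2 and 31.6 kb) fall in a class of which 10.6% hosted a region. The epithelial, melanocyte and neural crest, and skeletal muscle lists (21.1, 22.1 and 24.3 kb) fall in a class with 5.00%. No fibroblast core promoter was marked in any library. Marked promoters numbered 17, 17, 15 and 15 of 22 epithelial genes, in the order of Kdm6b-cKO replicates 3 and 4 followed by WT replicates 7 and 9. The corresponding counts were 11, 9, 9 and 8 of 18 endothelial genes and 9, 11, 7 and 6 of 21 immune genes. Melanocyte and neural crest genes had 11, 10, 9 and 8 of 17 and skeletal muscle genes 14, 13, 9 and 9 of 22. Vwf, the von Willebrand factor gene of endothelium, had 8 regions and 43.5 and 38.5 kb against 12.9 and 3.70 kb, and Flt4, Tie1 and Lyve1 had 1 each. St14 and Cdh1, an epithelial protease and E-cadherin, had 3 and 1, and Grhl2 1. The immune genes Il2ra, Zap70, Itgam and Runx3 had 1 or 2, the neural crest genes Ngfr and Ret 1 each, and the muscle genes Ryr1, Neb, Myh1 and Pax7 1 or 2. A change in the share of cells of a type and a change of the mark within cells cannot be told apart in bulk libraries.

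Kdm6b itself had no region and was not covered in any library. No gene of the list of H3K27 methylation machinery (12 genes) or of the housekeeping list (16 genes) was a host. Both lists are short, and their median lengths of 31.8 and 6.64 kb fall in classes of which 10.6% and 0.741% hosted a region. The peak lists hold no readout of the deletion of Kdm6b, so the genotype could not be checked in them.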

How the data were processed

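H3K27me3 ChIP-seq of 2 Kdm6b-cKO and 2 WT fibroblast cultures was used as broad peak lists. Per the labels, chromatin was digested enzymatically before precipitation. The submitters' processing notes name mm10 as the build, Bowtie2 2.3.5.1 and MACS2 2.2.7.1. Per the study's methods, libraries were brought to equal read numbers by subsampling, and broad calling used a q-value of 0.01. Each list was called by the authors on its own library, without pooling. Each deposited list gives, as MACS2 values over the peak, a −log10 q, a −log10 p, a display score and a fold ratio over background. No read count was available from the peak lists, so the depth behind a peak is unknown and no counting interval is given. How the input entered the calling is not given in the sources used here.

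Regions, places and coverage were computed in Python 3.11.15 with numpy 2.4.6, pandas 2.3.3 and scipy 1.17.1 and tested on simulated intervals. Covered length was the measure, since the authors' fold, score and −log10 values describe called peaks alone. The score and the −log10 p were not used. The main host of a region was its shortest overlapping gene. Motifs, GC, CpG islands and soft-masked repeats were read from the RefSeq sequence of GRCm38.p6, the assembly of mm10. Where nothing says that libraries came from separate embryos, p-values measure only the spread between these samples. Named genes were the hosts of the 12 longest regions and of the 8 with the highest fold in the weaker library, the 8 hosts with the most regions, and up to 4 hosts per gene list by summed region length. Kdm6b, the 3 regions on either side of the 3 kb limit and the 3 nearest to a WT peak were added. The regions and gene lists were chosen with earlier results of these data known. Alternatives changed the peaks used, merging, overlap, TSS set and window, gene models and libraries. A gene that the naming rule picked is not reported here.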

Additional observations from a re-analysis of the deposited data

Results flagged for a closer look

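The X chromosome, which the rule leaves out, carried the same kind of region at a lower share than the autosomes. Its 2578 gene-body regions included 157 Kdm6b-cKO-only regions (6.09%) and 70 WT-only regions. On the autosomes 18.5% of gene-body regions were Kdm6b-cKO-only, and the counts were 2618 and 43. The 157 were flagged only because they lay outside the main measurement and exceeded the WT-only count. The 157 regions lay in 104 of 948 protein-coding genes. Kdm6b-cKO replicates 3 and 4 covered 14.9 and 8.59 Mb of the chromosome and WT replicates 7 and 9 covered 9.57 and 6.27 Mb, so the genotypes overlapped there in covered length, which they did not on the autosomes.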

How the results depend on the processing

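The number of Kdm6b-cKO-only gene-body regions (2618), of their host genes (1386) and of mirrored WT-only regions (43) moved by over 1.5 times with the peaks used. With −log10 q of at least 4 they were 443, 379 and 12, and 59 of the 2618 regions were overlapped. With an equal number of strongest peaks they were 794, 594 and 165, and with equal covered length 23, 25 and 445. With regions at least 10 kb from any peak of the other genotype, added after seeing the data, they were 1260, 769 and 9. The differences between genotypes in the gene-body share of peaks and of covered length reversed with equal covered length (-5.44 and -2.91 points). Leaving out 1 library in turn gave 2851 to 6812 regions, 1469 to 2387 hosts and 88 to 927 mirrored regions, with 6337 regions without Kdm6b-cKO replicate 3, 6812 without replicate 4, 3819 without WT replicate 7 and 2851 without WT replicate 9. The mirrored counts were 164, 88, 292 and 927 in that order. A single library then stands for a genotype, and the rule asks for less. The gene-body share differences stayed between 1.62 and 2.29 points for peaks and 2.40 and 3.85 for length. Merging over 1 kb, a 20% overlap, every transcript TSS, windows of 1 or 10 kb, regions wholly inside genes, RefSeq gene models and leaving out gene models over 2 Mb kept every count within 1.5 times. The cause was not tested. No paired analysis was possible because replicate numbers 3 and 4 are not shared with 7 and 9. Depth per peak is unknown, so a missing WT peak does not show that the mark was absent.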

Other observations

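Gene-body regions called in 1 library alone outnumbered those called in both Kdm6b-cKO libraries. There were 3594 in Kdm6b-cKO replicate 3 alone and 2725 in replicate 4 alone, with median lengths of 637 and 593 bp, and 860 and 196 in WT replicates 7 and 9 alone, with 507.5 and 472 bp. The median fold was 2.70 for each knockout library, while WT replicates 7 and 9 had 2.80 and 2.91.

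The 43 WT-only gene-body regions lay in 40 genes, 0.192% of all, and 19 of these genes also hosted a Kdm6b-cKO-only region. Among them, chosen after their values were seen, were Wif1, a secreted Wnt inhibitor, the nuclear receptor gene Rora and the transcription factor gene Zfhx3. In Wif1 the promoter was marked in all 4 libraries, and the gene also held a gene-body region of all 4. Of the WT-only regions 1 had a CpG island (2.33%), and the median fold was 2.80 and 2.92 in WT replicates 7 and 9, close to the 2.80 and 2.81 of the Kdm6b-cKO-only regions.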
